A study of Homo sapiens with 6 samples.

Results

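G1 cyclins, kinases and CDK inhibitors were followed in LX-2, a line of stellate cells from human liver, after treatment with rhSema3C, recombinant human Sema3C. The 10 genes were the D cyclins CCND1, CCND2 and CCND3, the E cyclins CCNE1 and CCNE2, the kinases CDK4 and CDK6, and the inhibitors CDKN1A, CDKN1B and CDKN2B. They were picked by name from the 33900 genes of the table, with CCND1 as the starting point because of its fall with rhSema3C. RNA sequencing covered 3 samples that received 300 ng/ml rhSema3C for 48 h and 3 control samples that received PBS over the same time. All 6 samples were LX-2 cells labelled WT and grown in DMEM with fetal bovine serum, so the comparison holds for a single line in culture and not for stellate cells of a liver. The sample labels call the replicates biological and do not describe the cultures. The p-values set the difference between groups against the spread between these replicates. Whether that spread covers independent cultures is not known.

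The G1 phase is the interval in which a cell either commits to copy its DNA or stops. D cyclins, which are induced by growth factors, activate CDK4 and CDK6, and E cyclins then activate CDK2. These kinases phosphorylate the RB proteins, which frees E2F factors to switch on the genes of DNA replication. CDKN1A (p21) and CDKN1B (p27) bind cyclin-CDK complexes, whereas CDKN2B (p15) binds CDK4 and CDK6 directly and keeps D cyclins off them. Stellate cells are quiescent in the healthy liver and divide when they become activated.

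The total counts on genes ranged from 68267808 to 89245585 per sample. No sample was a copy of another, since the counts of paired samples within a group gave chi-square values of 12.6 to 20.4 per degree of freedom. Mitochondrial genes took 4.75% to 5.42% of counts with PBS and 3.73% to 3.93% with rhSema3C. Among the stellate cell markers checked, VIM, COL1A1, THY1, COL3A1, ACTA2 and PDGFRB were present, between 4.35 and 1074 FPKM over all samples, whereas COL1A2 stayed at or below 0.144 FPKM and DES at or below 0.0557 FPKM. The hepatocyte markers ALB, HNF4A and APOA1 stayed at or below 0.0708 FPKM, and the summed endothelial markers were between 0.161 and 0.875 FPKM. CD68, a macrophage marker, was between 63.6 and 98.0 FPKM, while the leukocyte marker PTPRC did not exceed 0.0143 FPKM. The summed stellate markers were between 1171 and 1228 FPKM with PBS and between 922 and 982 with rhSema3C. This sum was mostly VIM, whose mean was 1035 FPKM with PBS and 834 FPKM with rhSema3C. Mean COL1A1 (96.0 and 60.1), THY1 (24.4 and 13.4), COL3A1 (22.7 and 19.0) and ACTA2 (14.3 and 10.4) were also lower with rhSema3C. By qRT-PCR, in contrast, the study reported higher ACTA2 and COL1A1 mRNA in LX-2 cells given rhSema3C. Mean PDGFRB was higher, at 4.69 FPKM with PBS and 5.38 with rhSema3C. The part of these shifts in the results was not tested.

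Counts were normalised with TMM factors of edgeR and are given as CPM (counts scaled to a fixed normalised library size). Genes whose mean FPKM reached 0.5, 14178 in number, were compared with edgeR's quasi-likelihood test, and all 10 G1 genes passed this filter. FPKM, which is scaled to library size and transcript length without the TMM factors, was used for the markers and wherever levels of different genes were set side by side. The TMM factors were 0.958 to 0.968 with PBS and 1.03 to 1.04 with rhSema3C. Beside CPM, FPKM thus stands somewhat higher with rhSema3C than with PBS, which bears on FPKM levels compared between the groups. A gene was called at a Benjamini-Hochberg adjusted p below 0.05 over all genes tested. Because CCND1 was chosen for its value in this same comparison, the changes of the 10 genes are a description, without p-values.

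With rhSema3C, 5 of the 10 genes were lower, 4 were higher and 1 was not called. CCND1, CCND3, CCNE1, CCNE2 and CDK4 were on the lower side, and all 3 inhibitors together with CCND2 were on the higher side. Of all genes tested 62.3% were called, 30.6% lower and 31.7% higher, and nothing is read from the count of the 10. This split of 4490 higher and 4339 lower genes became 5654 and 3415 with library size as the only scaling, and 6934 and 2428 with limma on log2(TPM + 1). The median of the 10 log2 fold changes was -0.24, and that of all genes tested 0.02. The groups did not overlap in 9 of the 10 genes, 5 lower and 4 higher. The same held for 67.8% of the genes tested, 33.3% lower and 34.6% higher. At a fold change above 2 with an unadjusted p below 0.05, only CCND1 was lower and only CDKN2B higher among the 10, where 2.12% and 3.42% of the genes tested were past these limits.

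**Figure D1:**
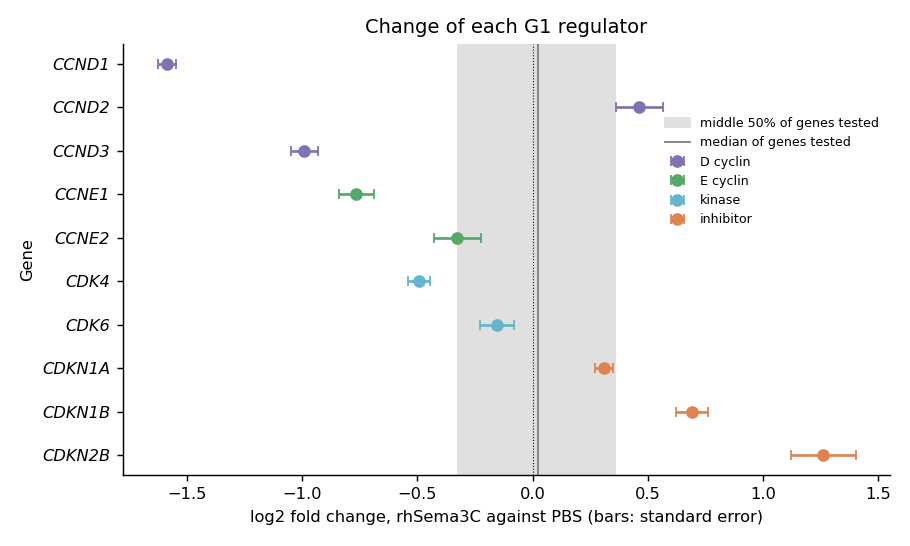
The log2 fold change of each G1 gene between rhSema3C and PBS (x axis, edgeR, bars give the standard error), coloured by role, with the middle 50% and the median of the 14178 genes tested behind it. CCND1 lies farthest to the left at -1.59 and CDKN2B farthest to the right at 1.26, with CCND2 the only cyclin right of 0.

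CCND1 (ENSG00000110092), which lies on chromosome 11 of GRCh38 from 69641156 to 69654474, encodes cyclin D1. Its level was 1244, 1278 and 1292 CPM in PBS replicates 1, 2 and 3, and 436, 415 and 418 CPM in rhSema3C replicates 1, 2 and 3. Every PBS sample was at least 2.85 times as high as every rhSema3C sample. The log2 fold change was -1.59 (standard error 0.04), a 3.00-fold lower level, which placed CCND1 at rank 66 among the 14178 genes ordered from the strongest fall. In bulk RNA, fewer cells that express a gene and less RNA per cell cannot be told apart. CCND1 shares exonic bases with LTO1 on the other strand, which had between 2358 and 3318 counts in the 6 samples, while CCND1 itself had between 34837 and 106489.

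CCND3, on chromosome 6 from 41934934 to 42050357, encodes cyclin D3 and was lower as well. It had 155, 179 and 156 CPM with PBS and 82.1, 79.5 and 84.8 CPM with rhSema3C. PBS replicate 2 was the highest sample, and the groups stayed apart by a factor of at least 1.82. CCND3 shares exonic bases with the noncoding gene AL513008.1 on the other strand. That gene has no counts in these data, so its part could not be read if strand was not used in counting. The log2 fold change was -0.99 (standard error 0.06), which is 1.99-fold and lies just short of the 2-fold limit. It passed that limit with DESeq2, with median-of-ratios scaling, without the filter on low genes, and without PBS replicate 1 (-1.03), PBS replicate 3 (-1.02) or rhSema3C replicate 3 (-1.01).

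CCND2, which encodes cyclin D2, was the least abundant of the 10 genes per length and went the other way. It had 7.36, 7.74 and 8.01 CPM with PBS and 10.4, 10.7 and 10.7 CPM with rhSema3C. All 3 rhSema3C samples were above all PBS samples, with a log2 fold change of 0.46 (standard error 0.10). CCND2-AS1, on its other strand, had at most 8 counts in PBS samples and between 12 and 31 in rhSema3C samples, against at least 527 counts for CCND2.

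As a family, the D cyclins summed to 277.9 ± 5.42 FPKM with PBS and 105.2 ± 2.31 FPKM with rhSema3C (SD, n = 3 per group). CCND1 made up 90.1% ± 0.692 of this sum with PBS and 85.1% ± 0.487 with rhSema3C. The share of CCND3 went from 9.55% ± 0.696 to 13.6% ± 0.462, and that of CCND2 from 0.325% ± 0.00882 to 1.27% ± 0.0470. Cyclin D1 mRNA thus remained the main D cyclin transcript in all 6 samples. The FPKM ratio of CCND1 to CCND3 was 9.47 ± 0.737 with PBS and 6.25 ± 0.243 with rhSema3C (SD, n = 3 per group).

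**Figure D2:**
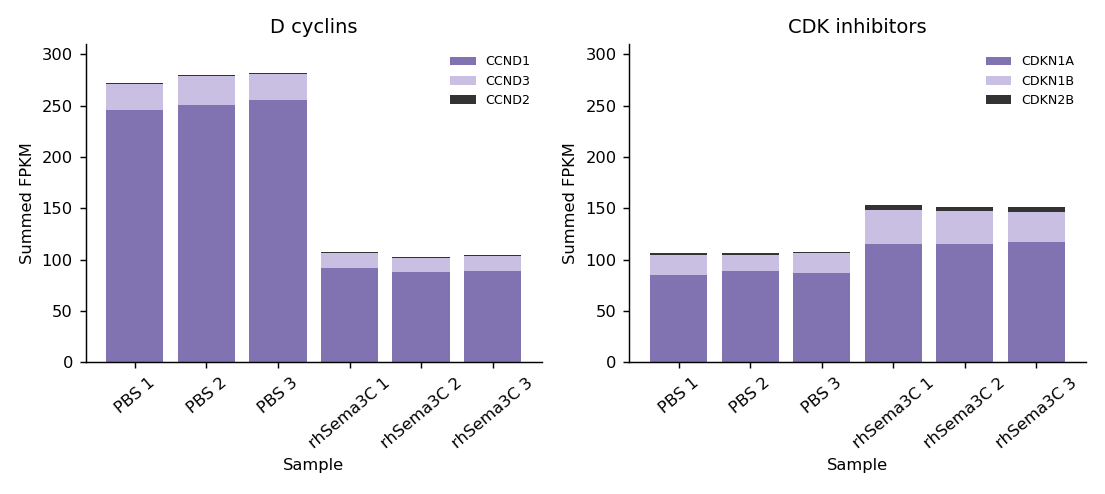
Summed FPKM (y axis, from 0) of the 3 D cyclins (left) and the 3 CDK inhibitors (right) in each of the 6 samples, with each gene as a segment. With PBS the D cyclin bars, between 272 and 282 FPKM, stand above the inhibitor bars, between 106.3 and 107.4 FPKM, and with rhSema3C the order is the opposite.

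Of the E cyclins, which act with CDK2 late in G1, CCNE1 had the narrower spread. CCNE1 had 22.8, 23.1 and 22.7 CPM with PBS and 13.5, 13.5 and 13.3 CPM with rhSema3C. The groups were 1.68-fold apart at their nearest samples, and the log2 fold change was -0.77 (standard error 0.08). CCNE2 had 14.1, 12.3 and 13.9 CPM with PBS and 10.8, 9.85 and 11.5 CPM with rhSema3C. Its nearest samples, PBS replicate 2 and rhSema3C replicate 3, were only 1.08-fold apart in CPM and overlapped in FPKM, at a log2 fold change of -0.33 (standard error 0.10). CCNE2 shares exonic bases with INTS8 on the other strand, which had more counts than CCNE2 itself, between 1848 and 3402 against 859 to 1207, so the level of CCNE2 is uncertain if strand was not used in counting. INTS8 had 1848 to 2485 counts in PBS samples and 2469 to 3402 in rhSema3C samples. The call of CCNE2 also depended on the setting, since it was lost without PBS replicate 1 (log2 fold change -0.29), without rhSema3C replicate 2 (-0.27), with library size as the only scaling (-0.22) and in the 3 limma fits.

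CDK4, the more abundant of the D cyclin kinases, was lower with rhSema3C. It had 607, 591 and 544 CPM with PBS and 419.9, 405 and 414 CPM with rhSema3C. PBS replicate 3 was the lowest PBS sample and was still above every rhSema3C sample, and the log2 fold change was -0.49 (standard error 0.05). CDK4 overlaps TSPAN31 on the other strand, which had between 1721 and 2523 counts against at least 34455 for CDK4. CDK6, its close relative, had 45.4, 37.4 and 42.6 CPM with PBS and 36.5, 38.4 and 37.8 CPM with rhSema3C. Here the groups overlapped, because PBS replicate 2 lay within the range of the rhSema3C samples, and CDK6 was the only one of the 10 genes that was not called, at a log2 fold change of -0.15 (standard error 0.07). It was called lower with DESeq2 (-0.17) and without PBS replicate 2 (-0.23), whereas the value was -0.091 without PBS replicate 1 and -0.046 by library size alone, both not called. Per length, CDK4 was 55.3 ± 6.30 times as abundant as CDK6 with PBS and 43.5 ± 1.97 times with rhSema3C (SD, n = 3 per group).

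All 3 inhibitors were higher with rhSema3C. CDKN1A, the p21 gene on chromosome 6 from 36676460 to 36687337, had 271, 284 and 277 CPM with PBS and 343, 342 and 348 CPM with rhSema3C. The groups did not overlap, with the smallest log2 fold change of the inhibitors, 0.31 (standard error 0.04). CDKN1B, the p27 gene, had 52.9, 45.2 and 51.7 CPM with PBS and 85.2, 81.8 and 74.5 CPM with rhSema3C. Its groups did not overlap either, at a log2 fold change of 0.69 (standard error 0.07).

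CDKN2B, the p15 gene on chromosome 9 from 22002903 to 22009305, had the largest fold of the higher genes, from a low base. It had 8.10, 7.59 and 5.60 CPM with PBS and 18.9, 15.7 and 16.4 CPM with rhSema3C, so PBS replicate 3 was the lowest sample and the groups were 1.94-fold apart at their nearest samples. The log2 fold change was 1.26 (standard error 0.14), or 2.39-fold. CDKN2B lies within the span of CDKN2B-AS1 on the other strand, without shared exonic bases in GENCODE 29, and that gene had 282 to 361 counts with PBS and 299 to 445 with rhSema3C. The neighbouring inhibitor gene CDKN2A, which encodes p16, was not called (log2 fold change -0.08, standard error 0.05, adjusted p = 0.21).

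**Figure D3:**
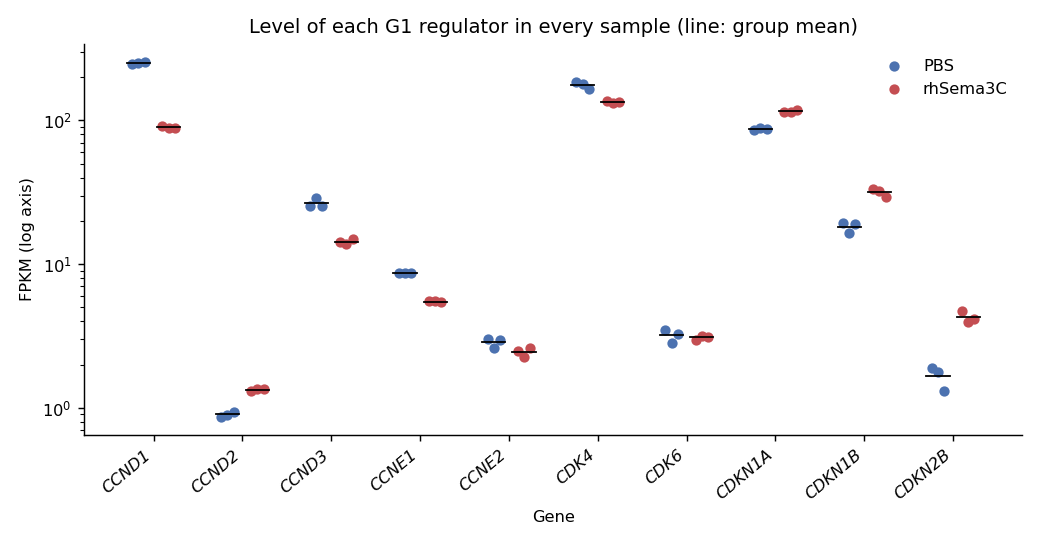
FPKM (log axis) of each G1 gene in the 3 PBS and the 3 rhSema3C samples, with points for samples and a line for the group mean. CDK6 and CCNE2 are the genes whose FPKM overlap between the groups, and the spread within a group is small beside the distance between groups for CCND1, CCNE1 and CDKN1A.

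The sequence before the transcription start was available from RefSeq (GRCh38.p14) for 7 of the 10 genes (not for CCND1, CCND2 and CCNE2), in 10 windows, which reach from 250 bases before to 50 bases after a start. The parts of 3 windows that lie in no annotated UTR are shown on the strand of the gene, since CDKN1A and CDKN2B were higher and CCNE1 was lower with rhSema3C. The capitals mark the GC box GGGCGG or its reverse complement CCGCCC, the motif bound by SP1. The CDKN1A stretch precedes a RefSeq start that lies inside the gene as the table delimits it.
CDKN1A, chr6:36678464-36678657, plus strand: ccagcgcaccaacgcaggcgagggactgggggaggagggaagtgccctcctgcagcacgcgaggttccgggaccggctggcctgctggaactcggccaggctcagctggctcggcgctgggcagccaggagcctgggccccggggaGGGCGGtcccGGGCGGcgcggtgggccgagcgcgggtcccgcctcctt
CDKN2B, chr9:22009364-22009555, minus strand: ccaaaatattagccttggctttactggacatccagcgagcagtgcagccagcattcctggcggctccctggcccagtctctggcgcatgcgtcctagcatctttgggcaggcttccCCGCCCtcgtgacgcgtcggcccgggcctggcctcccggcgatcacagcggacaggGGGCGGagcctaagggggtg
CCNE1, chr19:29811741-29811897, plus strand: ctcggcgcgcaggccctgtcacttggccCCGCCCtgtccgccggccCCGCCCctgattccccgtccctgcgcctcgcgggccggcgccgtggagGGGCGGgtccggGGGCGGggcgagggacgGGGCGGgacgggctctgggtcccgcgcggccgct

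The printed stretches hold 2 GC boxes for CDKN1A, 2 for CDKN2B and 5 for CCNE1, counting both strands. These genes were picked with their directions known, so nothing is read from the motif about direction. GC boxes were found in 8 of the 10 windows of the G1 genes and in 45.0% of all 35116 promoter windows of the same length. The 10 windows come from 7 genes, with CCND3 and CDK6 holding several, so they are not separate genes. An E2F motif, spelled TTTNGCGC and searched on both strands, was in 1.79% of all windows and none of the 10 G1 windows. Only this spelling was searched and it is rare in all windows, so nothing is read from its absence. The AP-1 motif TGANTCA, in 7.71% of all windows, was also in none of the 10. The CCAAT box was in 3 of the 10 windows and in 34.6% of all windows. The FOXO motif TGTTTAC was in 1 of the 10 and in 3.42% of all. These letter matches are a description of the windows and not of binding.

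Set side by side per length, CCND1 was the most abundant of the 10 genes with PBS at 250.5 ± 4.94 FPKM, followed by CDK4 at 176 ± 9.49, CDKN1A at 86.9 ± 1.71, CCND3 at 26.5 ± 2.09, CDKN1B at 18.3 ± 1.59 and CCNE1 at 8.69 ± 0.0298 (SD, n = 3 per group). The next in order, CDK6 at 3.20 ± 0.325 and CCNE2 at 2.86 ± 0.220 FPKM, overlapped in their samples, and CDKN2B and CCND2 came last at 1.66 ± 0.306 and 0.902 ± 0.0396 FPKM. With rhSema3C the order changed, with CDK4 first at 134 ± 2.37 FPKM, CDKN1A at 116 ± 1.36 and CCND1 at 89.5 ± 2.22 (SD, n = 3 per group). CDKN1B at 31.6 ± 2.05 FPKM stood above CCND3 at 14.3 ± 0.494, and CDKN2B at 4.28 ± 0.412 FPKM above CDK6 and CCNE2 at 3.09 ± 0.0893 and 2.45 ± 0.184, and no neighbours in this order overlapped.

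Ratios within a sample do not depend on the scaling between samples. On the FPKM scale, the summed D cyclins per summed inhibitors were 2.56, 2.63 and 2.62 with PBS and 0.703, 0.682 and 0.696 with rhSema3C. The summed D cyclins per summed CDK4 and CDK6 were 1.56 ± 0.111 with PBS and 0.765 ± 0.00658 with rhSema3C, and CDKN1A per CCND1 was 0.347 ± 0.00630 and 1.29 ± 0.0388 (SD, n = 3 per group). In every one of these ratios the groups were separate. The sums count transcripts of different genes as equal and give no measure of protein or kinase activity.

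CCND1 was next compared with all other genes by the Pearson correlation of log2 CPM over the 6 samples, which here mostly reflects the difference between the 2 groups. The genes most like CCND1 were SEMA6B, MARCHF4, H2BC12, MYL9 and FXR2, each with r = 1.00 after rounding, over 6 samples. SEMA6B encodes a transmembrane semaphorin, H2BC12 a histone H2B and MYL9 a light chain of myosin in contractile cells. Their log2 fold changes were -0.84, -1.75, -1.26, -1.46 and -0.57 in the same order. Of the 11568 named genes compared, 756 had r above 0.99, so such a pattern was common. Among the G1 genes r with CCND1 was 1.00 for CCNE1, 0.99 for CCND3, 0.98 for CDK4, 0.88 for CCNE2 and 0.65 for CDK6, and it was -0.99 for CCND2 and CDKN1A, -0.97 for CDKN1B and -0.96 for CDKN2B.

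The genes downstream and around the G1 kinases were read from the same whole-table fit, in 6 lists written with earlier results of these data known. In the list of 20 G1/S target genes of E2F, 15 fell, 2 rose and 3 were not called, against 30.6% of all genes tested that fell. The median log2 fold change of the list was -0.34, against 0.02 over all genes tested. UHRF1, which couples DNA methylation to replication, had 134 ± 5.49 CPM with PBS and fell to 70.6 ± 1.07 (SD, n = 3 each), or -0.93 on the log2 scale (standard error 0.04 and adjusted p = 2.9e-08). RRM2, a subunit of ribonucleotide reductase, fell by 0.87 and thymidine kinase TK1 by 0.76 on the log2 scale (standard error 0.04 for each, adjusted p = 1.4e-08 and 5.4e-08). The helicase subunit MCM6 and RRM1 were the 2 that rose, by log2 fold changes of 0.28 (adjusted p = 0.00023) and 0.12 (adjusted p = 0.029). The call of RRM1 was lost without PBS replicate 2 (0.10), PBS replicate 3 (0.12), rhSema3C replicate 2 (0.11) or rhSema3C replicate 3 (0.10), which leaves 1 that rose. By library size alone 14 fell and 4 rose, and with limma on log2(TPM + 1) 11 fell and 5 rose.

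Of the 12 S and G2/M markers, 6 fell, 2 rose and 4 were not called, with a median log2 fold change of -0.18. Over all genes tested 30.6% fell, 31.7% rose and 62.3% were called in all. The share called in either direction was thus near the background. At the scaling used, a larger share of the list fell and a smaller share rose than over all genes. BIRC5, which encodes survivin, had 166 ± 8.94 CPM with PBS and fell to 83.3 ± 1.43 (SD, n = 3 each), or -0.996 on the log2 scale (standard error 0.05 and adjusted p = 2.4e-08), followed by the mitotic kinase PLK1 at -0.73 (adjusted p = 6.9e-08) and the proliferation marker MKI67 at -0.53 (adjusted p = 6.9e-06). The kinetochore genes BUB1 and CENPF rose, by log2 fold changes of 0.24 (adjusted p = 0.0039) and 0.22 (adjusted p = 0.022). CENPF lost its call without PBS replicate 2 (0.20), PBS replicate 3 (0.23), rhSema3C replicate 2 (0.16) or rhSema3C replicate 3 (0.19). By library size alone 5 markers fell and 4 rose, and with limma on log2(TPM + 1) 5 fell and 5 rose. CCNB1, CCNB2, CDK1 and TOP2A were the 4 that were not called, with log2 fold changes between -0.16 and 0.03. The study itself reported, from an EdU assay, that rhSema3C enhanced the proliferation of LX-2 cells. That assay is a measure on cells and not of RNA, and its difference from these RNA levels was not tested.

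Of the 13 RB proteins and E2F factors, 6 fell, 3 rose and 4 were not called, with a median of -0.15 on the log2 scale. These shares lay beside 30.6% lower, 31.7% higher and 62.3% called among all genes tested. The share called in either direction was again near the background. At the scaling used, the share lower was larger and the share higher smaller than over all genes. E2F7, an E2F that represses transcription, stood apart from the rest. It had 89.2 ± 1.43 CPM with PBS and rose to 191 ± 2.40 (SD, n = 3 each), or 1.10 on the log2 scale (standard error 0.04 and adjusted p = 3.4e-09). The pocket protein RBL2 (p130), which holds E2F targets silent in resting cells, rose by 0.54 (adjusted p = 5.1e-06). E2F5, at a low level, had a log2 fold change of 0.53 and is counted among the 3 that rose. Its mean was 0.422 FPKM with PBS and 0.657 FPKM with rhSema3C. It thus passed the filter at 0.5 only through the rhSema3C samples, and its value is a description without a p-value. With no filter on low genes, 2 of the list rose and 5 fell. E2F4, the usual partner of RBL2, fell by 0.56 on the log2 scale (adjusted p = 4.9e-06), and the low-level E2F8 and E2F2 fell by log2 fold changes of -0.48 (adjusted p = 0.017) and -0.46 (adjusted p = 0.014). The calls of E2F5, E2F8 and E2F2 depended on single libraries, as E2F5 lost its call without PBS replicate 1 (0.48) or 2 (0.54) or rhSema3C replicate 1 (0.47) or 2 (0.42), E2F8 without PBS replicate 1 (-0.36) or rhSema3C replicate 2 (-0.42) or 3 (-0.41), and E2F2 without PBS replicate 2 (-0.40) or rhSema3C replicate 1 (-0.34). RB1 itself was not called (log2 fold change 0.09, standard error 0.05, adjusted p = 0.18). The list's split turned with the scaling, to 5 higher and 3 lower by library size alone, and was 6 higher and 2 lower with limma on log2(TPM + 1).

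In the list of other G1 kinases, activators and CDK inhibitors, 4 of the 9 genes tested fell, 3 rose and 2 were not called, and CDKN1C was below the filter. Of all genes tested 30.6% fell and 31.7% rose, so the share that rose in this list was at the background. The share that fell was larger, among only 9 genes. CDC25A, the phosphatase that activates CDK2, fell most, by a log2 ratio of -0.76 (standard error 0.07 and adjusted p = 2.4e-06). The inhibitor CDKN2C (p18) fell by 0.64 (adjusted p = 6.9e-05) and the kinase CDK2 by 0.51 (adjusted p = 1.4e-06) on the log2 scale. The 3 that rose, MNAT1, CDK7 and CCNH, are the subunits of the CDK-activating kinase, with log2 fold changes of 0.42 (adjusted p = 0.0024), 0.35 (adjusted p = 0.0048) and 0.26 (adjusted p = 0.016). CCNH lost its call without PBS replicate 3 (0.17) or rhSema3C replicate 2 (0.20). Of the INK4 inhibitors, CDKN2B was thus higher and CDKN2C lower, while CDKN2A and CDKN2D (log2 fold change -0.24, adjusted p = 0.15) were not called.

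All 13 of the ubiquitin ligase parts that turn over G1 proteins were called, 9 higher and 4 lower, with a median of 0.17, where 62.3% of all genes tested were called, 31.7% higher and 30.6% lower. The higher calls numbered 6 without PBS replicate 2, 7 without PBS replicate 3, 7 without rhSema3C replicate 2, 8 without rhSema3C replicate 1 or 3, and 7 with no filter on low genes, while the lower calls stayed at 4 in these fits. FBXO4, an F-box protein described as a receptor for cyclin D1, had 14.4 ± 2.28 CPM with PBS and rose to 28.1 ± 1.14 (SD, n = 3 each), or 0.96 on the log2 scale (standard error 0.11 and adjusted p = 1.6e-05). FBXW7, the receptor for cyclin E, rose by 0.48 (adjusted p = 0.00060), and DTL by 0.39 (adjusted p = 0.00019). DDB1, AMBRA1 and FBXO31 fell, with log2 fold changes of -0.46 (adjusted p = 5.0e-06), -0.31 (adjusted p = 0.0095) and -0.22 (adjusted p = 0.012), and AMBRA1 and FBXO31 also serve as receptors for D cyclins. By library size alone and with limma on log2(TPM + 1), 1 part was lower, and FBXO31 was at 0.0032 in the latter fit.

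The list of 18 p53 target genes, of which CDKN1A is a textbook example outside the list, moved mostly upward. Of these genes 14 rose, 3 fell and 1 was not called, against 31.7% of all genes tested that rose, and the median log2 fold change was 0.55. BBC3, which encodes the pro-apoptotic protein PUMA, had 9.08 ± 0.465 CPM with PBS and rose to 19.9 ± 1.31 (SD, n = 3 each), or 1.13 on the log2 scale (standard error 0.09 and adjusted p = 1.4e-06). MDM2, the ubiquitin ligase of p53, and TP53INP1 rose by log2 fold changes of 0.99 (adjusted p = 2.0e-06) and 0.85 (adjusted p = 8.7e-06). BAX, AEN and TP53I3 fell, with log2 fold changes of -0.57 (adjusted p = 1.6e-06), -0.50 (adjusted p = 5.6e-05) and -0.30 (adjusted p = 0.0073). TP53I3 lost its call by library size alone (-0.19), at a mean FPKM of at least 5 (-0.19) and with limma on log2(TPM + 1) (-0.063). By library size alone and in that limma fit, 2 of the list were lower and 15 higher. BAX and BBC3 both promote apoptosis and went in opposite directions.

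**Figure D4:**
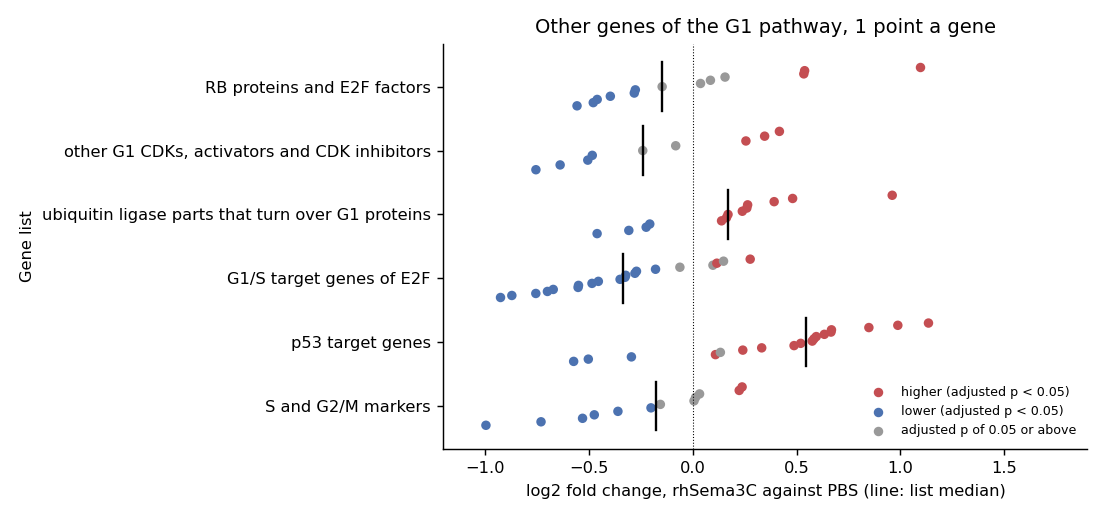
The log2 fold change between rhSema3C and PBS (x axis) of each tested gene in the 6 lists of other G1 pathway genes, with a black line at each list's median and colours for genes called higher, called lower or not called. The medians range from -0.34 for the G1/S target genes to 0.55 for the p53 target genes, and every list holds genes of both directions.

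The directions of the 10 genes were also read under other scalings, because scaling by library size alone moved the median log2 fold change of all genes tested from 0.02 to 0.13. It was 0.23 with limma on log2(TPM + 1), where TPM is FPKM rescaled to the same sum in each sample, a fit that changes the test and the pseudocount along with the scaling. CCND1 was lower in each of the 15 other fits, with log2 fold changes from -1.61 to -1.36. CDK6 was above 0 with limma on log2(TPM + 1), at 0.07, and the other 9 genes kept their direction in every fit that held them. The cyclins of the lower side, CCND3, CCNE1 and CCNE2, ranged from -1.03 to -0.75, from -0.78 to -0.52 and from -0.39 to -0.09, and the inhibitors CDKN1A, CDKN1B and CDKN2B from 0.29 to 0.54, from 0.62 to 0.91 and from 0.99 to 1.37.

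**Figure D5:**
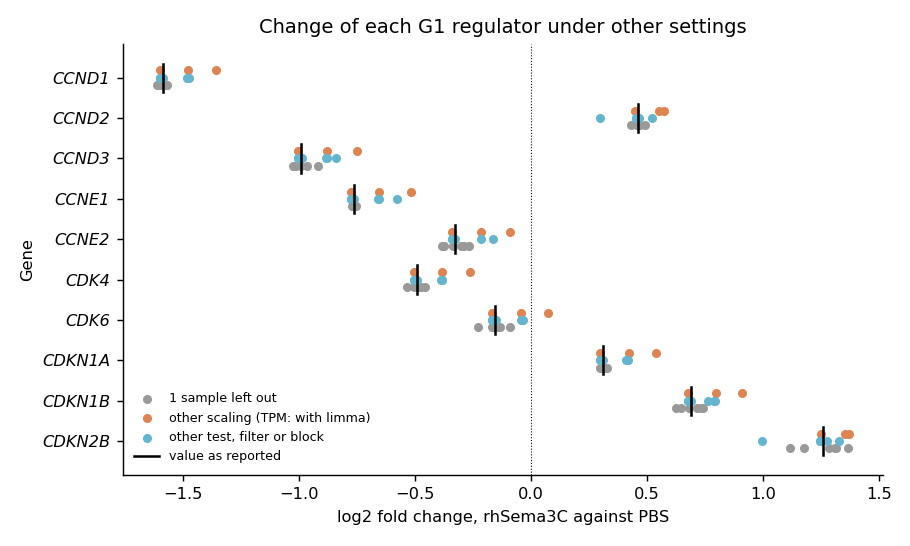
The log2 fold change of each G1 gene (x axis) as reported (black line) and under the other tests, filters, scalings and fits that leave out 1 sample (points). CCND1 keeps between -1.61 and -1.36, and CDK6 is the only gene with points on both sides of 0.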

How the data were processed

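RNA of 6 LX-2 samples went through a SMARTER mRNA-seq library kit and an Illumina NovaSeq run, and the methods of the study credit its expression analysis to Cufflinks with cuffmerge. Raw read counts per gene, in whole numbers, and FPKM, which divides them by gene length and library size, were deposited by the authors in 1 table. Aligner, strand setting and build are not given in the sources used here, and the gene coordinates lie on GRCh38 by comparison with GENCODE 29. The table held 0 unused columns of sample values.

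Groups came from the sample labels. The counts were fitted with edgeR 4.0.16 (glmQLFit and glmQLFTest, TMM factors, R 4.3.3) after a filter at a mean FPKM of 0.5. Adjusted p-values are from edgeR's quasi-likelihood test with Benjamini-Hochberg adjustment over all 14178 genes, and each standard error was computed from the log2 fold change and its F value. Alternatives were DESeq2 1.42.0, limma 3.58.1 on log2(FPKM + 1), log2(FPKM + 0.1) and log2(TPM + 1), other scalings and filters, the replicate number as a block, and fits that leave out 1 sample. The fits were tested on simulated data, and figures were drawn with matplotlib 3.10.9.

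The 10 genes and the 6 lists were chosen with earlier results of these data known. The rule for names took the 10 genes, up to 3 largest rises and 3 largest falls among the called genes of each list, and the 5 genes most correlated with CCND1 at a mean FPKM of at least 1. Outside this rule, RB1, CDKN2A, CDKN2D, CCNB1, CCNB2, CDK1, TOP2A and the overlapping genes LTO1, INTS8, TSPAN31, CCND2-AS1 and CDKN2B-AS1 were added with their values in view. The overlapping gene AL513008.1, which has no counts, was also named.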

Additional observations from a re-analysis of the deposited data

How the results depend on the processing

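The limits lie in 3 samples per group of a single line and in overlapping genes that are uncertain if strand was not used, and counting error is small at this depth. Of the 10 G1 genes, 8 kept direction and call in every fit that held them, CCNE2 lost its call in 6 of 14, and CDK6 gained one in 2. With limma on log2(TPM + 1), named TPM from here on, CDK6 reversed to 0.071 and FBXO31 to 0.0032, and the cause was not tested. Genes past a 2-fold lower level numbered 2 among the 10 with DESeq2, median-of-ratios scaling and no filter. With limma on log2(FPKM + 1), 0 of the 10 were past 2-fold higher, and all genes past 2-fold were 173 higher and 76 lower. With log2(FPKM + 0.1) 182 were lower, with TPM 95 lower beside 6934 genes called higher and 2428 lower, and with no filter 1284 higher and 726 lower. At a mean FPKM of at least 5, which leaves fewer genes tested, 2 of the 10 were called higher and 0 past 2-fold higher, 7 p53 targets were higher, and 2630 genes were called higher and 2602 lower, 167 and 71 past 2-fold. In the 3 limma fits, by library size alone and at the stricter filter, 1 ubiquitin ligase part was lower, RB and E2F genes were lower in 3 (2 with TPM), and G1/S targets and S and G2/M markers were each higher in 4 (5 with TPM). RB and E2F genes were higher in 5 by library size and 6 with TPM. With no filter, 1 G1/S target and 1 S and G2/M marker were higher. The CCND1 share of the D cyclins differed by -5.03 percentage points in FPKM and -6.14 in counts. Leaving out each sample gave -5.43 to -4.76 for that share, 4 to 6 of the 10 genes lower, 1 to 2 past 2-fold lower, 1 to 3 G1/S targets higher and 1 to 2 S and G2/M markers higher. Replicate numbers did not pair the samples (correlations of -0.0041, 0.058 and -0.027), and the replicate block left 4 higher and 5 lower of the 10, with 1 G1/S target higher and 4221 and 4120 genes called.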
